A study of Rattus norvegicus with 12 samples.

Results

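The genes described here are 7 of the 25620 genes in the count table of a diabetic rat wound study: Pinlyp, Tm4sf4, Micalcl, Lao1, Sorcs1, Peg12 and Vom2r44. They were chosen by their own readout, because at least 1 wound dressing moved them in the same direction against the control on 3 of 3 days, so their differences from the control are given as a description with no test. Young adult male SD rats were made diabetic with streptozotocin (STZ), which destroys the insulin-producing cells of the pancreas, and a circular full-thickness wound was punched in the dorsal skin. The wound received normal saline (control), d-SMG (the dried mucus gel of the land snail Achatina fulica), s-GAG (the sulfated glycosaminoglycan purified from that gel, labelled GAG) or Alg (a commercial alginate dressing). Wound tissue was taken on day 3, 7 and 14, and 1 stranded, rRNA-depleted RNA library was made for each treatment on each day, 12 libraries in all. All groups share the diabetes and the wound, and no group is an unwounded or non-diabetic skin. Whether a library holds 1 wound or several pooled is not given in the sources used here. STZ diabetes may lack features of human foot ulcers such as neuropathy and mechanical stress. Since there is 1 library per group, a difference between a dressing and the control has no replicate check, and the intervals below (exact, 95%) cover counting error only.

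The 7 genes belong to no common pathway. Pinlyp is named for a phospholipase inhibitor and carries the LY6/PLAUR domain, a disulfide-rich fold shared with several surface proteins of keratinocytes. Tm4sf4 encodes a membrane protein of the L6 family, known from liver and intestine. Micalcl resembles the C-terminal part of the MICAL proteins, enzymes that take actin filaments apart by oxidizing them. Lao1 encodes an L-amino acid oxidase, an enzyme that releases hydrogen peroxide from amino acids and is known as an antibacterial protein of mouse milk. Sorcs1 encodes a VPS10 sorting receptor that carries cargo between the Golgi and the cell surface and has been linked to insulin secretion. Peg12 is an imprinted gene, expressed from the paternal copy, and its protein is a relative of the FRAT proteins of the Wnt pathway. Vom2r44 belongs to the vomeronasal receptors, the pheromone receptors of sensory neurons in the nose.

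RefSeq promoters of the rat build GRCr8 were at hand for 4 of the 7 genes, Pinlyp, Tm4sf4, Lao1 and Sorcs1, of which the first pair were mostly higher and the second pair mostly lower under the dressings. The 250 bases before each annotated start are shown 5′ to 3′ on the strand of the gene, because they are the regulatory sequence at hand for these genes. Capitals mark matches, on either strand, to the letters of a TATA box (TATAAA), an AP-1 site (TGANTCA), a GC box (GGGCGG) or a CCAAT box (CCAAT).
Pinlyp, chr1:89267914-89268163, minus strand: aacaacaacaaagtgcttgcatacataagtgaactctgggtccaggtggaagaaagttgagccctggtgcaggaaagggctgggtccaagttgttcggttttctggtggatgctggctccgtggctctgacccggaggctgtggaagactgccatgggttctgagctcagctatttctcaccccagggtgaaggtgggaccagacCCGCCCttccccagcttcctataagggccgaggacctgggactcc
Tm4sf4, chr2:143755811-143756060, plus strand: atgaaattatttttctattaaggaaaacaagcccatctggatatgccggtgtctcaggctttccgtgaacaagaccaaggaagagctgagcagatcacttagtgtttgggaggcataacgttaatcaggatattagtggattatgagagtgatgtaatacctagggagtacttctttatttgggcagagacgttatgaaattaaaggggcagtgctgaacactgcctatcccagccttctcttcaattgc
Lao1, chr5:137858783-137859032, plus strand: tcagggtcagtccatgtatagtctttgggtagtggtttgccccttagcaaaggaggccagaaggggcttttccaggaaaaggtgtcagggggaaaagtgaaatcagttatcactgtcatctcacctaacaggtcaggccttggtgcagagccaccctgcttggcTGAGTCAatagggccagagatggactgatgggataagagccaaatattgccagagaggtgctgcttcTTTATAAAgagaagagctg
Sorcs1, chr1:259535487-259535736, minus strand: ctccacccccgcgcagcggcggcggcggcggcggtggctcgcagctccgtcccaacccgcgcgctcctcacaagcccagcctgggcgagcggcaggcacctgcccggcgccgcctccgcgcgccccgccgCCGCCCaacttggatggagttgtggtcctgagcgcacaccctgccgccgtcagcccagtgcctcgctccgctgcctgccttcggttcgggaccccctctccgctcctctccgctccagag
Pinlyp held a GC box 45 bases before the start, and Sorcs1 held one 120 bases before it. Lao1 held an AP-1 match at 86 bases and a pair of overlapping TATA box matches, 1 on each strand, at 19 and 17 bases. The letters of the 4 motifs were not found in the window of Tm4sf4. The G and C content was 42% for Tm4sf4, 49.6% for Lao1, 56.8% for Pinlyp and 76.4% for Sorcs1. Over all 33469 RefSeq promoters of this length, 12.9% held the TATA box letters, 6.34% the AP-1 letters, 30.5% the GC box letters and 34.0% the CCAAT letters. The GC box of Pinlyp and Sorcs1 is thus of a common kind, and the TATA box and AP-1 letters of Lao1 are less common. A match describes letters in a window and is not a bound site.

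The libraries held 13748887 to 38302461 reads assigned to genes. Levels below are CPM, the reads of a gene scaled to a common library size, after TMM scaling over the 12 libraries (TMM factors from 0.715 to 1.21). Library size alone would shift the median log2 ratio of all genes to the same-day control. For d-SMG the shift was −0.46, 0.29 and 0.19 on day 3, 7 and 14. For s-GAG it was 0.17, 0.05 and −0.39, and for Alg 0.15, −0.04 and 0.07. With either scaling, or with RLE size factors or FPKM, the number of days on which each of the 7 genes was higher than the control under each dressing was the same. The d-SMG library of day 3 stood apart. Its 18 skeletal muscle markers summed to 267131 CPM, the most of any library, and its 6 basal keratinocyte markers to 73.3, against 5141 in the control of that day. All libraries are labelled skin. In the d-SMG library of day 3 the basal, suprabasal and wound keratinocyte sums and the hair follicle sum were the lowest of the 12. Some pair counts, day contrasts and correlations, and the d-SMG calls, are therefore also given without that library. The rest use all 12 libraries. In bulk tissue, fewer cells of a type and less RNA per cell cannot be told apart.

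Set beside one another per transcript length (FPKM), the 7 genes ran from moderate to very low levels. Pinlyp had a median over the 12 libraries of 5.595 FPKM and Micalcl of 4.88, above 76.6% and 74.8% of all genes. The medians of Lao1 and Peg12 were each 0.57, that of Tm4sf4 0.26, and those of Sorcs1 and Vom2r44 each 0.125. FPKM depends on transcript length, so read support is given apart. The median reads per library were 18.5 for Lao1, 30 for Peg12, 9.5 for Tm4sf4, 34.5 for Sorcs1 and 22.5 for Vom2r44. Those of Pinlyp and Micalcl were 99.5 and 234.5.

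**Figure D1:**
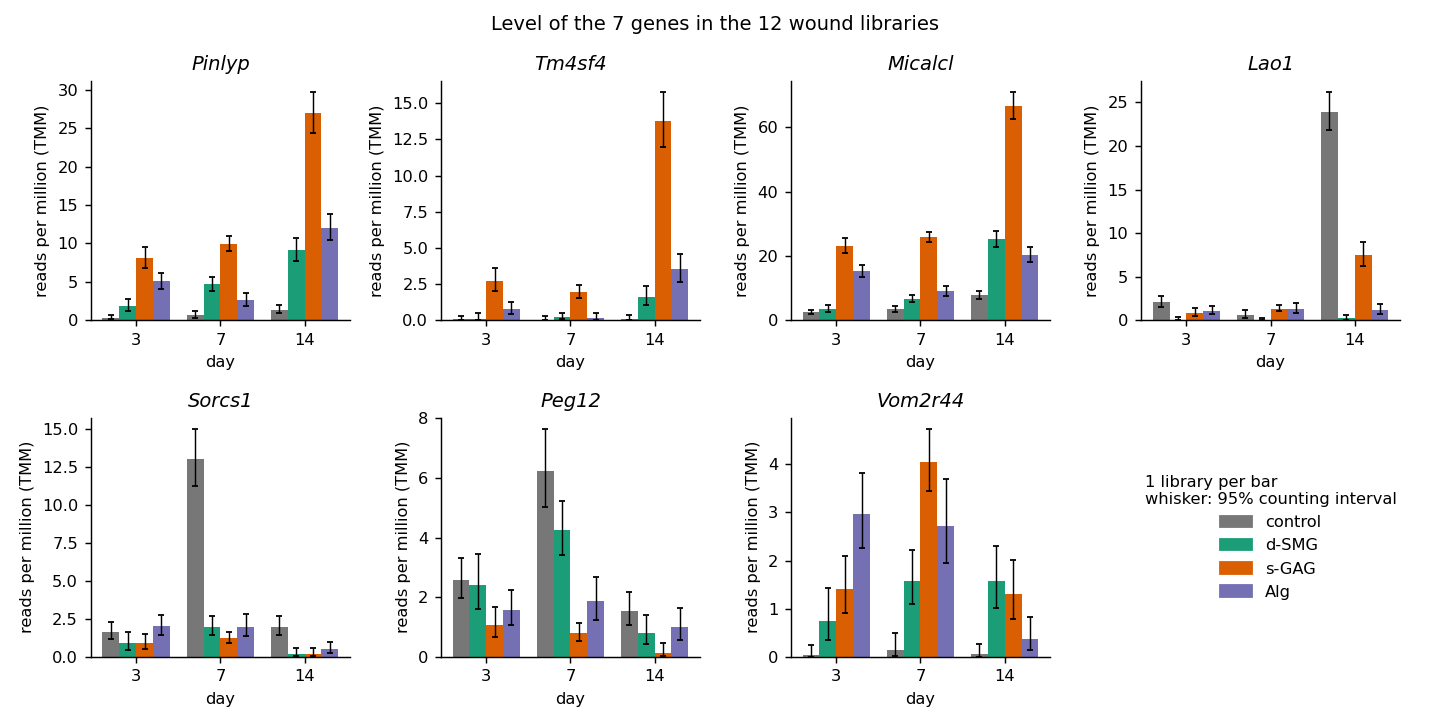
Level of each of the 7 genes in every library, as TMM-scaled CPM against day (3, 7 and 14), with 1 bar per library and exact 95% counting intervals, by treatment (control, d-SMG, s-GAG, Alg). Pinlyp, Micalcl and Vom2r44 sit above the control on every day under every dressing, Peg12 sits below it on every day, and the Lao1 level of the control on day 14 (24.0 CPM) stands above all others.

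Pinlyp, Micalcl, Tm4sf4 and Vom2r44 were the genes that were higher under the dressings. Pinlyp had 7, 9 and 28 reads in the control on day 3, 7 and 14. It had 22, 97 and 146 reads under d-SMG, 143, 392 and 415 under s-GAG, and 102, 39 and 191 under Alg. Every dressing library exceeded the control of its day, in 9 of 9 pairs, and s-GAG was the highest on each day. The log2 ratio of d-SMG to control was 2.62 (1.34 to 4.09) on day 3, 2.93 (1.94 to 4.10) on day 7 and 2.75 (2.16 to 3.39) on day 14. For s-GAG it was 4.77 (3.69 to 6.11), 4.03 (3.09 to 5.17) and 4.31 (3.76 to 4.92). For Alg it was 4.08 (2.99 to 5.43), 2.08 (1.01 to 3.32) and 3.15 (2.57 to 3.78). The d-SMG ratios overlapped in their intervals on all 3 days, a rise of 6.16-fold to 7.61-fold, and without the d-SMG library of day 3 the count was 8 of 8 pairs.

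Micalcl also exceeded the control in 9 of 9 pairs, from 56, 51 and 161 reads in the control to 43, 138 and 402 under d-SMG. The reads were 409, 1017 and 1027 under s-GAG and 308, 137 and 323 under Alg. The s-GAG libraries were the highest on each day, with log2 ratios of 3.28 (2.88 to 3.71), 2.91 (2.50 to 3.34) and 3.09 (2.85 to 3.34), between 7.50-fold and 9.74-fold. The d-SMG ratios were smaller, 0.59 (−0.02 to 1.19) on day 3, 0.93 (0.46 to 1.43) on day 7 and 1.69 (1.42 to 1.96) on day 14, and the first is not a detectable difference at this depth. The Alg ratios were 2.68, 1.39 and 1.38.

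Tm4sf4 was close to absent from the control, with 2, 0 and 2 reads. It had 48, 77 and 212 reads under s-GAG, 15, 2 and 56 under Alg, and 1, 4 and 26 under d-SMG. On day 3 the log2 ratio of s-GAG to control was 5.0004 (3.07 to 8.09) and on day 14 it was 7.15 (5.28 to 10.2), the largest ratio of the 7 genes. On day 7, against a control with no read, s-GAG was at least 9.65-fold higher, taking 3 reads as the floor of the control. The d-SMG library had 1 read against 2 on day 3, a log2 ratio of −0.03 (−5.91 to 4.23), so d-SMG lies just outside the selection rule for this gene. The Alg library of day 7 had 2 reads against 0, too few for a fold.

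Vom2r44 had 1, 2 and 1 reads in the control and more reads in each of the 9 dressing libraries. It had 9, 33 and 25 reads under d-SMG, 25, 159 and 20 under s-GAG, and 60, 41 and 6 under Alg. In CPM, the order of the dressings changed with the day, Alg being the highest on day 3, s-GAG on day 7 and d-SMG on day 14. The log2 ratios ran from 2.96 (−0.08 to 8.49) for Alg on day 14 to 6.12 (3.59 to 11.4) for Alg on day 3. Without the d-SMG library of day 3, the dressings were higher in 8 of 8 pairs.

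Lao1, Sorcs1 and Peg12 were the genes that were lower. Lao1 had 49, 9 and 494 reads in the control. Under d-SMG it had 0, 1 and 3 reads, under s-GAG 15, 52 and 115, and under Alg 22, 19 and 18. The d-SMG libraries were the lowest on each day, and the control of day 14 was the highest of the 12. Against that library the log2 ratio was −6.99 (−9.28 to −5.44) for d-SMG, −1.68 (−1.99 to −1.39) for s-GAG and −4.40 (−5.17 to −3.72) for Alg. On day 3 d-SMG was at least 8.34-fold lower than the control, taking 3 reads as the floor. On day 7 the direction was mixed, with −3.67 (−9.13 to −0.82) for d-SMG but 1.12 (0.08 to 2.33) for s-GAG and 1.05 (−0.17 to 2.37) for Alg. Lao1 thus met the rule for d-SMG only, and in 7 of 9 pairs it was lower. The d-SMG library of day 3, where keratinocyte markers were lowest, is 1 of the 3 behind that pattern, and the other d-SMG libraries were also below their controls.

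Sorcs1 had 39, 192 and 41 reads in the control, 11, 41 and 3 under d-SMG, 16, 49 and 3 under s-GAG, and 41, 30 and 8 under Alg. The control of day 7 was the highest of the 12 libraries. The log2 ratio on day 7 was −2.73 (−3.25 to −2.24) for d-SMG, −3.38 (−3.87 to −2.92) for s-GAG and −2.71 (−3.32 to −2.15) for Alg. On day 14 it was −3.40 (−5.74 to −1.76), −3.35 (−5.69 to −1.70) and −1.98 (−3.28 to −0.87). On day 3 the difference was within counting error for each dressing, −0.86 (−1.97 to 0.14), −0.87 (−1.81 to 0.00) and 0.29 (−0.38 to 0.96), and the positive sign puts Alg just outside the rule. Sorcs1 was lower in 8 of 9 pairs.

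Peg12 was lower in 9 of 9 pairs, by amounts that were small under d-SMG. It had 61, 92 and 32 reads in the control, 29, 89 and 13 under d-SMG, 19, 31 and 2 under s-GAG, and 32, 28 and 16 under Alg. The log2 ratio for s-GAG was −1.27 (−2.09 to −0.50), −2.98 (−3.62 to −2.38) and −3.58 (−6.68 to −1.61), and the s-GAG libraries had the lowest CPM on each day. For Alg it was −0.71 (−1.38 to −0.07), −1.75 (−2.41 to −1.12) and −0.62 (−1.59 to 0.29). For d-SMG it was −0.10 (−0.79 to 0.56), −0.55 (−0.99 to −0.11) and −0.93 (−1.98 to 0.04). The d-SMG value of day 3 is the smallest difference inside the rule, and its interval spans 0. Without the d-SMG library of day 3, Micalcl and Tm4sf4 were higher in 8 of 8 pairs, Lao1 in 2, Sorcs1 in 1 and Peg12 in 0.

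**Figure D2:**
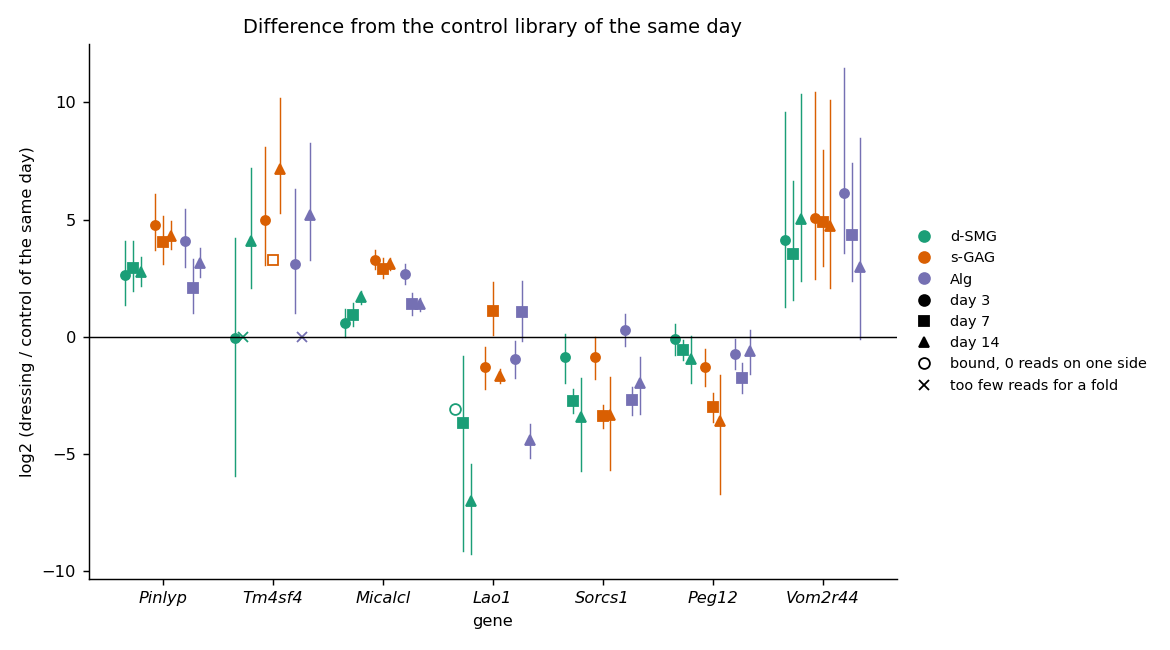
Log2 ratio of each dressing to the control of the same day for the 7 genes (points, with exact 95% counting intervals), by day and dressing. Ratios lie between −6.99 (Lao1, d-SMG, day 14) and 7.15 (Tm4sf4, s-GAG, day 14), an open symbol marks a bound where 1 side had no read, and a cross on the 0 line marks a pair with too few reads for a fold.

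Movement in 1 direction on 3 of 3 days was frequent in these libraries. Among genes with at least 10 reads in the pair on each day, 10.5% were higher and 8.47% lower on all 3 days under d-SMG, 13.5% and 14% under s-GAG, and 12.7% and 11.3% under Alg. A difference of at least 2-fold on each day was rarer, at 0.139% higher and 0.132% lower for d-SMG, 3% and 0.738% for s-GAG, and 1.39% and 0.189% for Alg. Calls on 2 libraries (edgeR's exact test with an assumed biological coefficient of variation of 0.3, FDR under 0.05) compare libraries and not conditions. They are given as a description for the genes chosen on these values. The minimum of 10 reads left 6 of 9 pairs for Tm4sf4 and 8 of 9 for Vom2r44, and 9 of 9 for each of the other genes.

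Under d-SMG, Pinlyp was the 1 gene of 15121 called higher on 3 of 3 days (0.00661%), and 1 gene was called lower (0.00661%), the myosin heavy chain gene Myh7. With library size alone in place of TMM, 0 genes were called on 3 of 3 days in either direction for d-SMG. Without the library of day 3, on day 7 and day 14 alone, 46 of 15676 genes were called higher under d-SMG (0.293%), Pinlyp among them, and 120 lower (0.765%), Sorcs1 among them. Under s-GAG, 150 of 15726 genes were called higher (0.954%), among them Pinlyp, Micalcl, Tm4sf4 and Vom2r44, and 1 was called lower (0.00636%), the homeobox gene Lhx8. Under Alg, 20 of 15337 were called higher (0.13%) and 0 lower (0%), and none of the 7 genes was among them. Myh7 and Lhx8 are named here after their values were seen. Because the rule used these contrasts, nothing is read from the members' share.

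The dressings were tested against one another only where the rule had not used the values. Lao1 between s-GAG and Alg was the 1 such case. Its log2 difference was 0.52 ± 0.84 (SE), higher under s-GAG on 2 of 3 days, with an adjusted p = 0.989 by edgeR's quasi-likelihood test over 16110 genes with Benjamini-Hochberg adjustment. In that contrast 0 genes passed (0%), 168 had an unadjusted p under 0.05, and leaving out the libraries of day 14 turned the Lao1 value to −0.09. As a description, s-GAG exceeded d-SMG on 3 of 3 days for Pinlyp, Micalcl, Tm4sf4 and Lao1, and d-SMG exceeded s-GAG on 3 of 3 days for Peg12. Pinlyp was 4.43-fold, 2.15-fold and 2.95-fold higher under s-GAG than under d-SMG on day 3, 7 and 14, and Micalcl was 6.48-fold, 3.92-fold and 2.65-fold higher.

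The Micalcl entry has a particular limit. RefSeq for GRCr8 gives Micalcl as a synonym of Mical2, whereas the deposited tables list both as separate genes, so Micalcl reads may be reads of part of the Mical2 locus. Mical2, an actin oxidase, had 327 to 3119 reads per library. The Micalcl share of the reads of both entries was 3.13% (2.38 to 4.05), 6.90% (5.18 to 8.97) and 21.1% (18.2 to 24.1) in the control on day 3, 7 and 14. It was 7.56%, 14.0% and 32.6% under d-SMG, 26.9%, 24.6% and 75.8% under s-GAG, and 20.3%, 17.5% and 24.8% under Alg. The share exceeded that of the control in 9 of 9 pairs, although on day 14 the interval of Alg (22.5 to 27.2) overlapped that of the control. Mical2 itself did not follow Micalcl. Its log2 ratio was −0.75, −0.20 and 0.83 for d-SMG, −0.23, 0.77 and −0.46 for s-GAG, and −0.30, −0.12 and 1.08 for Alg. The highest share, under s-GAG on day 14, came from 1027 Micalcl reads and 327 Mical2 reads, the fewest Mical2 reads of any library.

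**Figure D3:**
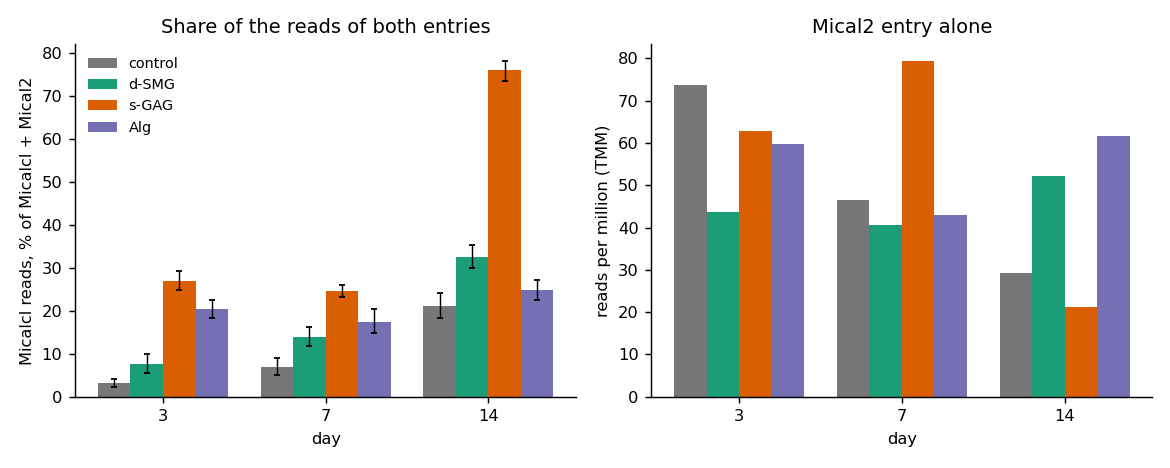
Left, Micalcl reads as a percentage of the reads of Micalcl and Mical2 together, by day and treatment (bars, 1 library each, with exact 95% intervals). Right, TMM-scaled CPM of the Mical2 entry. The share rises from 3.13% in the control of day 3 to 75.8% under s-GAG on day 14, where Mical2 is at its lowest level, 21.2 CPM.

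Vom2r44 stood alone among its relatives. The other 37 vomeronasal receptors of the table had at most 3 reads in any library and 56 reads in all over the 12 libraries, against 382 for Vom2r44. Reads of a large receptor family can be shared between near-identical copies, and how such reads were counted is not given in the sources used here. Gmps, the adjacent protein-coding gene in GRCr8, had 389 to 1784 reads and was higher than the control in 5 of 9 pairs. The Pearson correlation of Vom2r44 with Gmps over the 12 libraries was −0.03.

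The difference between days was not itself used by the rule. It was fitted with the 4 treatments of a day as its samples, in a model with treatment and day. The rule favoured dressing differences of 1 direction over the days, and the spread of these differences enters the error of this fit. The SE and p of the 7 genes are thus not independent of the choice. In these contrasts of days, 0 of 16110 genes passed in any (0% each for day 7 against 3, day 14 against 7 and day 14 against 3), and 292, 502 and 798 genes had an unadjusted p under 0.05. DESeq2 called 18 genes (0.071%), 26 genes (0.103%) and 46 genes (0.21%). The 7 genes are therefore given by size. From day 3 to day 14 the fitted log2 difference was 1.81 ± 0.37 (SE) for Pinlyp, 2.31 ± 0.59 for Tm4sf4, 1.61 ± 0.37 for Micalcl and 2.71 ± 0.81 for Lao1, each positive in 4 of 4 treatments. It was −1.54 ± 0.55 for Sorcs1, negative in 3 of 4 treatments, and −1.34 ± 0.45 for Peg12, negative in 4 of 4. For these 6 genes the adjusted p was 0.882 by edgeR's quasi-likelihood test with Benjamini-Hochberg adjustment. Some of the signs rested on few reads. On day 3 and day 14 Lao1 had 22 and 18 reads under Alg (1.09 and 1.13 CPM) and 0 and 3 under d-SMG. In the control Lao1 went from 2.08 to 23.95 CPM and under s-GAG from 0.85 to 7.47. Tm4sf4 had 2 reads in the control on both days. Vom2r44 had −0.44 ± 0.68, with an adjusted p = 0.953 by the same edgeR test, and turned positive without the Alg libraries (0.52). Without the d-SMG library of day 3 the values were 1.58 for Pinlyp, 1.97 for Tm4sf4, 1.30 for Micalcl, 2.63 for Lao1, −1.47 for Sorcs1, −1.37 for Peg12 and −0.88 for Vom2r44.

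For the same 6 genes the sign was the same from day 7 to day 14. Tm4sf4 differed by 3.27 ± 0.62 and Sorcs1 by −2.61 ± 0.54 on the log2 scale, with an adjusted p = 0.904 by edgeR. Each kept its direction in 4 of 4 treatments, but in the control Tm4sf4 had 0 reads on day 7 and 2 on day 14. Pinlyp differed by 1.42 ± 0.37, Micalcl by 1.47 ± 0.36 and Peg12 by −1.83 ± 0.45, also in 4 of 4 treatments. From day 3 to day 7 the values lay between −0.95 ± 0.64 (Tm4sf4) and 1.07 ± 0.52 (Sorcs1). The tools differed. With DESeq2 the adjusted p was 0.0112 for Pinlyp and 0.0295 for Micalcl on day 14 against day 3, and 0.000736 for Tm4sf4 and 0.014 for Sorcs1 on day 14 against day 7. In the other 19 alternatives, all with edgeR, the adjusted p ranged from 0.492 to 1 for Pinlyp and Micalcl in the first contrast and from 0.662 to 0.9998 for Tm4sf4 and Sorcs1 in the second.

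**Figure D4:**
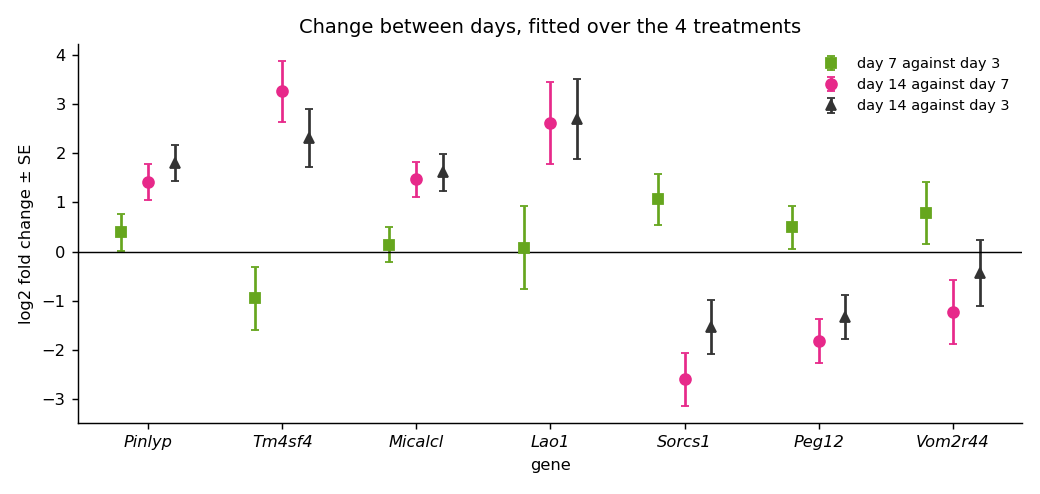
Fitted log2 fold change between days for the 7 genes over the 4 treatments (points, with SE bars from edgeR's quasi-likelihood fit). Pinlyp, Tm4sf4, Micalcl and Lao1 have positive values and Sorcs1 and Peg12 negative values in both contrasts with day 14 as the later day, and 0 genes passed the adjusted test in any contrast.

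The relatives of the 7 genes were described by lists chosen with earlier results of these data known. Only relatives with at least 10 reads in at least 6 of the 12 libraries are counted below. Over all genes with at least 10 reads in the pair on each day, 10.5% were higher and 8.47% lower on 3 of 3 days under d-SMG. The shares were 13.5% and 14% under s-GAG, and 12.7% and 11.3% under Alg. The lists are short, and nothing is read from their counts. Of 12 other LY6/PLAUR genes at this depth, 5 were higher and 1 lower than the control on 3 of 3 days under s-GAG. Under Alg 3 were higher, and under d-SMG 1. Lypd3, an adhesion protein of keratinocytes, and Lypd6b were higher on each day under both s-GAG and Alg, while Plaur, the urokinase receptor, was the 1 gene that was lower under s-GAG. These gene names were chosen after their values were seen, and with library size alone 4 instead of 5 were higher under s-GAG. On day 14 against day 3 Lypd5 had 3.02, Psca −2.21 and Ly6d 1.69 on the log2 scale. The L6 family had 1 other gene at this depth, Tm4sf1, the neighbour of Tm4sf4 in GRCr8. Tm4sf1 had 389 to 2192 reads and was higher than the control in 6 of 9 pairs. It differed by 0.07 between day 14 and day 3. Of the 5 other MICAL genes, 2 were higher on 3 of 3 days under d-SMG, 2 under s-GAG and 1 under Alg, and 1 was lower under Alg. The d-SMG count was 0 with RLE size factors. Their largest day contrasts were 0.56 for Micall2, −0.53 for Mical2 and 0.48 for Mical3.

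Among the 6 other amino acid and amine oxidases, 1 was higher on 3 of 3 days under d-SMG (Smox, spermine oxidase) and 1 under Alg (Aoc3, a vascular amine oxidase). With library size alone the d-SMG count was 0, and with it or with RLE size factors 1 gene was higher under s-GAG. The log2 ratio of Smox for d-SMG on day 3 was only 0.01. The day contrasts were 0.18 for Paox, −0.14 for Aoc3 and 0.10 for Smox. The other 3 VPS10 receptors at this depth were Sorl1, Sort1 and Sorcs2. They and the other 2 FRAT genes did not move in 1 direction on 3 of 3 days under any dressing. Sorl1 had a day contrast of 0.54, Sort1 of −0.50 and Sorcs2 of 0.09, and Frat2 had −0.49 and Frat1 −0.28. Of 17 other imprinted genes, 2 were lower on 3 of 3 days under d-SMG, 3 under s-GAG and 4 under Alg, and 0 were higher. Over all genes 8.47%, 14% and 11.3% were lower, and nothing is read from the counts of so few genes. With library size alone the numbers of these imprinted genes lower were 0, 2 and 3. Cdkn1c, an inhibitor of the cell cycle, was lower under each dressing with TMM, and Grb10, an inhibitor of insulin signaling, under s-GAG and Alg. The day contrast was −2.25 for H19, −1.29 for Grb10 and −1.17 for Mest. On day 7 and day 14 alone, without the d-SMG library of day 3, 11 of the 17 were lower and 1 higher under d-SMG. Of the 12 LY6/PLAUR genes 4 were higher and 1 lower. In the other lists, 2 MICAL genes, 2 oxidases and Tm4sf1 were higher, and 2 MICAL genes, 1 VPS10 receptor and 1 FRAT gene lower. The share of all genes that kept 1 direction on both days was not counted, so nothing is read from these numbers. In the lists of relatives together, 0 genes passed the test of day 14 against day 3.

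Of the protein-coding genes directly adjacent to members in GRCr8, 7 had reads enough to describe. Next to Pinlyp, which was higher in 9 of 9 pairs, Xrcc1 was higher than the control in 6 and Irgq in 3. Next to Tm4sf4, Tm4sf1 was higher in 6 and Wwtr1, a coactivator of the Hippo pathway, in 1. Gmps, beside Vom2r44, was higher in 5. Mkrn3, imprinted like its neighbour Peg12, was higher in 5 of 9 pairs, where Peg12 was lower in 9, and Slc2a1, the glucose transporter gene beside Lao1, was higher in 8. Without the d-SMG library of day 3 the counts of 8 pairs were 6 for Xrcc1, 2 for Irgq, 6 for Tm4sf1, 0 for Wwtr1, 4 for Gmps, 5 for Mkrn3 and 8 for Slc2a1.

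Over the 12 libraries, the log2(CPM + 1) values of Pinlyp and Micalcl had a Pearson correlation of 0.95, those of Pinlyp and Tm4sf4 of 0.90, and those of Sorcs1 and Peg12 of 0.82. They were 0.96, 0.90 and 0.86 without the d-SMG library of day 3. These are descriptions, since the libraries share treatments, days and tissue composition. The genes most like Pinlyp among 13080 with a mean of at least 1 CPM were Foxe1 (0.96), a transcription factor, Trpv6 (0.96), a calcium channel, and Krt35 (0.96), a hair keratin. Those most like Tm4sf4 were Tom1l1 (0.97), Rnase10 (0.96) and Ass1 (0.96), a urea cycle enzyme. Those most like Micalcl were Serpina11 (0.97), Cib2 (0.97) and Scg5 (0.96). Lao1 was closest to Lce1m (0.96), Cyb5r2 (0.90) and Lce1l (0.89), and Lce1m and Lce1l encode proteins of the cornified envelope, the outer shell of the epidermis. Sorcs1 was closest to Rasl12 (0.92), Nsg1 (0.89) and Ubqln2 (0.88), Peg12 to Nol4l (0.96), Fam171a1 (0.95) and Armcx2 (0.94), and Vom2r44 to Kifc2 (0.91), Tra2a (0.88) and Dgkq (0.86). In the control of day 14, where Lao1 was highest, the 9 suprabasal and cornified keratinocyte markers also had their highest sum, 6561 CPM.

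Markers of other cell types moved with several of these values. The 15 hair follicle markers, all in the table, summed to 26.4 to 44129 CPM, lowest in the d-SMG library of day 3 and highest in the Alg library of day 14, with 3 markers at 0 in the former and 1 in each control library of day 3 and day 7. Their sum had a correlation over the 12 libraries of 0.82 with Micalcl, 0.81 with Pinlyp and 0.66 with Tm4sf4. The 5 wound keratinocyte markers, such as stress keratins, summed to 4.41 to 7702, highest under s-GAG on day 14, and had correlations of 0.77, 0.67 and 0.63 with those genes. Without the d-SMG library of day 3, over 11 libraries, the correlations with Pinlyp were 0.96 for the wound keratinocyte sum, 0.89 for the basal keratinocyte sum and 0.84 for the hair follicle sum, and those with Micalcl were 0.96, 0.90 and 0.79. With Peg12 they were −0.86, −0.84 and −0.65, and with Sorcs1 −0.78, −0.77 and −0.65. With all 12 libraries kept, the wound keratinocyte, basal keratinocyte and hair follicle sums had −0.57, −0.45 and −0.63 with Peg12. They had −0.29, −0.17 and −0.48 with Sorcs1. The basal keratinocyte sum had 0.53 with Pinlyp and 0.64 with Micalcl over the 12, so these values depended on that library. Over the 12 libraries, Peg12 had correlations of 0.74 with the endothelial sum (349 to 907 CPM), 0.68 with the macrophage sum (607 to 4558) and 0.64 with the T and NK cell sum (138 to 602). Sorcs1 had 0.58 with the endothelial sum. Micalcl had −0.70 with the macrophage sum and −0.64 with the endothelial sum, and Vom2r44 had −0.63 with the macrophage sum and −0.67 with the T and NK cell sum. The adipocyte sum (577 to 2479) had 0.62 with Pinlyp and 0.63 with Tm4sf4, and the suprabasal sum 0.61 with Lao1. When each gene was divided by the hair follicle sum of its library, Pinlyp and Micalcl were above the control in 3 of 9 pairs, Vom2r44 in 4 and Tm4sf4 in 7. Of the wound keratinocyte markers 1 was at 0 in the d-SMG library of day 3 and in the control of day 14. Divided by the wound keratinocyte sum, Micalcl was above it in 3 of 9 pairs, Pinlyp in 8, and Tm4sf4 and Vom2r44 in 9. Divided by the basal keratinocyte sum, Pinlyp, Tm4sf4 and Vom2r44 were above it in 9 of 9 pairs and Micalcl in 8. Lao1 was above the control in 0 of 9 pairs with each of these sums, Sorcs1 in at most 1 and Peg12 in 1. Without the d-SMG library of day 3 the counts of 8 pairs for the hair follicle sum were 2 for Pinlyp and Micalcl, 3 for Vom2r44 and 6 for Tm4sf4. For the wound keratinocyte sum they were 7 for Pinlyp, 2 for Micalcl, and 8 for Tm4sf4 and Vom2r44. For the basal keratinocyte sum they were 7 for Micalcl and 8 for the other 3, and Lao1, Sorcs1 and Peg12 were at 0 with each of these epithelial sums. Sums of other cell types gave other counts. Divided by the skeletal muscle sum, Lao1 was above the control in 2 of 9 pairs, and Sorcs1 and Peg12 in 4. With the macrophage sum the counts were 4 for Lao1 and 2 for Sorcs1 and Peg12. With the fibroblast sum they were 3 for Lao1, 0 for Sorcs1 and 4 for Peg12. Pinlyp, Tm4sf4, Micalcl and Vom2r44 were above it in 8 or 9 of 9 pairs with each of these last sums. The part of these cell types in the results was not tested.

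**Figure D5:**
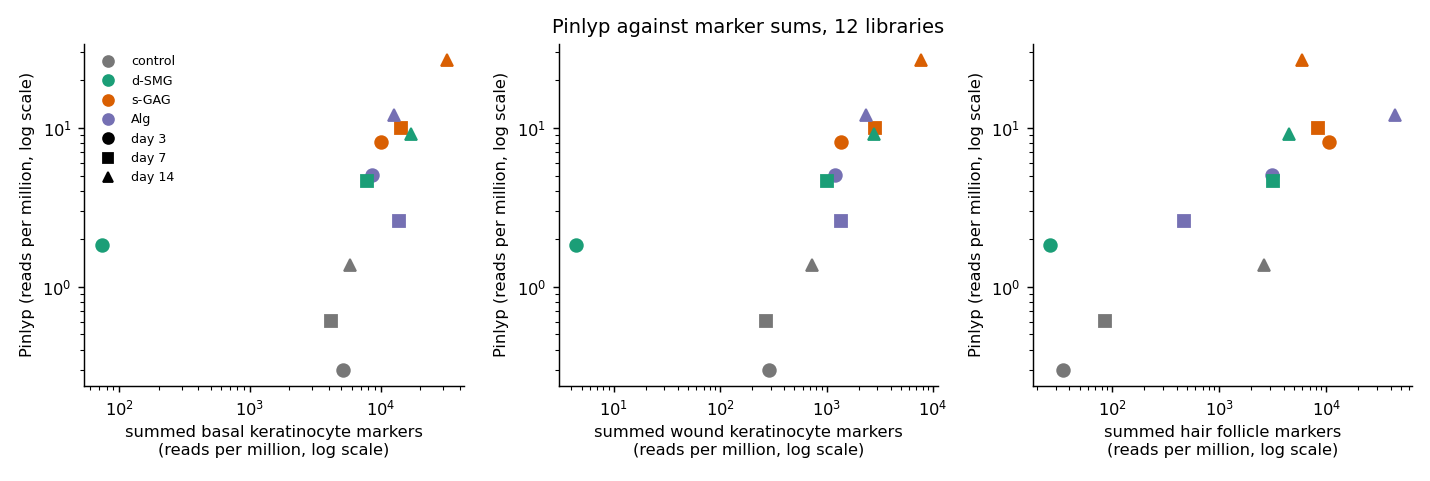
Pinlyp level (vertical, CPM, log axis) against the summed basal keratinocyte, wound keratinocyte and hair follicle markers (horizontal, CPM, log axis) in the 12 libraries, with color for treatment and shape for day. The d-SMG library of day 3 lies at the far left of each panel (73.3, 4.41 and 26.4), the s-GAG library of day 14 has the highest Pinlyp level (26.9), and the Alg library of day 14 lies at the far right of the hair follicle panel (44129).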

How the data were processed

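Whole-transcriptome RNA libraries of diabetic rat wound skin were sequenced as read pairs of 150 bases. The authors deposited a table of raw read counts per gene (25620 genes) and a table of FPKM values (25524 genes), in which the authors divided fragments by transcript length and library depth. The submitters' processing notes name bcl2fastq, FastQC, TopHat2 and edgeR, without versions. The genome build, the counting tool and the handling of strand and of shared reads are not given in the sources used here. In both tables a single column (1 per table) matched no labelled sample and was not used.

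Samples were grouped by treatment and day from their labels, 1 library per group. Here, counts were scaled by TMM over the 12 libraries (edgeR 4.0.16, R 4.3.3). Each dressing library was set against the control of its day as a log2 ratio with an exact conditional 95% counting interval (scipy 1.17.1). Where 1 side had no read, a bound against 3 reads was used. Library pairs were called by edgeR's exact test at an assumed coefficient of variation of 0.3 and an FDR of 0.05, for genes with at least 10 reads in the pair, since 1 library per group leaves no dispersion to estimate. Days were tested by edgeR's quasi-likelihood test with treatment and day as terms, Benjamini-Hochberg adjusted over 16110 genes. The libraries of a treatment share a name across days but no animal. The quasi-likelihood fit was tested on simulated counts with known large changes in genes with many reads. The fit returned nearly all of these changes with the right sign. The simulated libraries had a variation of 0.3, no treatment effects and no differences in tissue composition. The check therefore covers the working of the fit and not its power in these data. DESeq2 1.42.0, other scalings, filters and assumed variation, FPKM with pseudocounts of 0.1 and 1, and each library left out were tried as alternatives. Sums of marker genes as a divisor, and leaving out the d-SMG library of day 3 in some of the pair counts, correlations and calls, were chosen after seeing the data.

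The named genes are the 7 members, at most 3 expressed relatives per list by largest day contrast, and the 3 genes most correlated with each member. Adjacent genes of members are named besides. Lypd3, Lypd6b, Plaur, Cdkn1c, Myh7 and Lhx8 were named outside this rule, after their values were seen. The members and lists were chosen with earlier results of these data known. Promoters came from RefSeq for GRCr8 (4 of 7 members matched).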

Additional observations from a re-analysis of the deposited data

How the results depend on the processing

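Each ratio of a dressing to its control kept its sign with library size alone, RLE size factors and both FPKM pseudocounts (236 of 236 values), and 54 of these moved outside the counting interval. Counts of genes steady over 3 days depended on the setting. With FPKM and a pseudocount of 0.1 the genes at least 2-fold higher under d-SMG numbered 5, and those lower 11 for d-SMG, 60 for s-GAG and 13 for Alg. With a pseudocount of 1 they numbered 1, 177 and 63 higher and 2, 20 and 4 lower for d-SMG, s-GAG and Alg. With at least 50 reads in the pair they numbered 2, 310 and 131 higher and 6, 74 and 12 lower. With no filter on low counts they numbered 140, 762 and 417 higher and 153, 287 and 147 lower. Genes called on 3 of 3 days under d-SMG numbered 3 higher and 5 lower with an assumed variation of 0.2, and 0 and 0 with 0.4, with library size alone and with no filter. With at least 50 reads 0 were higher under d-SMG, a setting that leaves Pinlyp out on day 3, and 0 were lower under s-GAG. For s-GAG, 0.2 gave 306 higher and 38 lower, and 0.4 gave 71 and 0. For Alg, 0.2 gave 97 higher and 4 lower, and 0.4 gave 1 higher.

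In the contrasts of days, DESeq2 called 18, 26 and 46 genes where edgeR's quasi-likelihood test called 0, and the cause was not tested. The fit without treatment as a replicate block called 0 genes in each contrast, as did each fit that left out a library or a treatment. The treatments share a name across days and no animal, so the block is not a pairing of samples. When a library or a treatment was left out, the day 7 against day 3 value of Lao1 (0.08) lay between −0.66 and 0.72, with 8 of these fits below 0, and it was −0.33 without the replicate block. That of Micalcl (0.14) lay between −0.14, without the d-SMG library of day 3, and 0.56, and was −0.04 without all d-SMG libraries. The day 14 against day 3 value of Vom2r44 (−0.44) lay between −1.25 and 0.52, above 0 only where Alg libraries were left out. Lao1 between s-GAG and Alg (0.52) lay between −0.27, without the Alg library of day 14, and 1.27, and was −0.09 without day 14. The lowest library of Tm4sf4, Lao1, Vom2r44 and Peg12 holds 0 to 2 reads, which limits the depth behind their ratios.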
